A study of Mus musculus with 2 samples.

Results

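A set of 9 genes for heme breakdown and iron handling was followed in mCherry-positive cells sorted from mouse tumours, profiled as single cells. They are Hmox1, Blvrb, Blvra, Fth1, Ftl1, Slc40a1, Slc11a1, Tfrc and Ncoa4, taken by symbol from the feature list of both count matrices. All 9 were found, among 31054 features. The study holds 2 libraries, from hosts aged 4 weeks (called young here) and 24 weeks (adult). Both carry the label d7, and in both the tumours were pooled and total mCherry-positive cells were sorted by flow cytometry. The labels name neither the strain, the tumour nor the cells built to carry mCherry. Because each age is 1 library of pooled tumours, there is no replicate and no test of age, and age cannot be told apart from the pool, the sort, the library preparation or the sequencing. Intervals given in square brackets or as ranges are 95% intervals for counting error only.

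Heme released from ingested or dying cells is opened by heme oxygenase 1 (Hmox1) into biliverdin, carbon monoxide and free iron. Biliverdin reductases A and B (Blvra, Blvrb) act on the pigments and flavins downstream, and the iron is stored inside ferritin, a shell of heavy (Fth1) and light (Ftl1) chains. Ferroportin (Slc40a1) exports iron from the cell, the transferrin receptor (Tfrc) brings it in, Slc11a1 moves metal ions across the phagosome membrane, and Ncoa4 delivers ferritin to lysosomes for breakdown. Macrophages are known for this cycle because they clear red blood cells. Ferritin, ferroportin and transferrin receptor amounts are also set after transcription: iron regulatory proteins bind hairpins called iron-responsive elements, blocking translation from the 5′ UTR and stabilising the mRNA from the 3′ UTR. UMI counts see the mRNA, and so a change in its stability, but not the block of translation.

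The elements are shown because they divide these genes into groups that UMI counts reflect differently. The search used the letters CNNNNNCAGTGN, read 5′ to 3′ on the transcript, followed by 5 bases that pair with the 5 after the first C (G-T pairs allowed). In the sequences below, given in lower case from mm10 transcripts (GENCODE M21), capitals mark the loop of the hairpin.
Fth1 5′ UTR: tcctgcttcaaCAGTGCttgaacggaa
Ftl1 5′ UTR: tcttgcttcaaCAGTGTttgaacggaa
Slc40a1 5′ UTR: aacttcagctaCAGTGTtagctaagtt
Tfrc 3′ UTR, first match: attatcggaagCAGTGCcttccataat
Tfrc 3′ UTR, last match: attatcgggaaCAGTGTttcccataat
Hmox1 lies at chr8:75093621-75100589, Blvrb at chr7:27447978-27466144, Blvra at chr2:127070665-127097084, Slc11a1 at chr1:74375195-74386062 and Ncoa4 at chr14:32159865-32179855 (mm10). The Fth1 element lies at chr19:9982733-9982759 on the plus strand, the Ftl1 element at chr7:45459780-45459806 on the minus strand and the Slc40a1 element at chr1:45925466-45925492 on the minus strand. Tfrc held 4 matches in its 3′ UTR, the first at chr16:32631220-32631246 and the last at chr16:32631711-32631737, on the plus strand. None of the other 5 genes had a match in a UTR. Of 21875 protein-coding genes, 28 (0.128%) had a match in a 5′ UTR and 127 (0.581%) in a 3′ UTR. Ftl1-ps1, a near-identical copy of Ftl1 on chromosome 13, carries the same 27 letters, so reads of the 2 copies may be divided or discarded in counting, and Ftl1 values are uncertain to that extent. Ftl1-ps1 had 1.68% (young) and 1.94% (adult) as many UMIs as Ftl1 in the main cell class below, where it stood at 350.3 and 254 UMIs per 1000000. In 300-base promoter windows from RefSeq (GRCm38.p6), the antioxidant response element core TGACNNNGC was sought on both strands. It occurred in 2 of the 12 windows of these genes (7 genes have one or more), 1 each of Blvra and Ncoa4, or 16.7%, against 12.4% of all 32851 windows.

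Cells were divided by UMI counts. The Csf1r cells, 5526 in the young and 4364 in the adult library, had at least 1 UMI of Csf1r, the receptor of monocytes and macrophages. The mCherry-rich cells (423 and 476) had at least 10 UMIs of the mCherry construct, and stand for tumour cells. Neutrophils (116 and 189) had S100a8 and S100a9 at 1% or more of their UMIs and at most 1 Csf1r UMI. T cells (40 and 103) served as a rough reference for free RNA, and 985 and 642 cells without a Csf1r UMI fell in no class. These are ranges of counts: 1032 and 709 of the Csf1r cells had exactly 1 Csf1r UMI, 36 and 42 mCherry-rich cells had 10 to 19 mCherry UMIs, and 26 and 33 neutrophils had S100 shares of 1 to 2%.

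Markers set the classes apart, with exceptions. The 10 macrophage markers summed to 9434 and 8551 CPM (UMIs per 1000000 UMIs of the class) in Csf1r cells, and the 7 neutrophil markers to 63733 and 87363 CPM in neutrophils. Of the mCherry-rich cells, however, 197 and 174 also held a Csf1r UMI, and 37.4% and 31.1% a UMI of the leucocyte gene Ptprc, so this class is not free of leucocyte RNA. In T cells the macrophage markers summed to 235 and 1037 CPM, so this reference holds more macrophage RNA in the adult library. Median UMIs per cell were 10347.5 and 10119 in Csf1r cells and 32751 and 31334.5 in mCherry-rich cells. They were 2130.5 and 1900 in neutrophils and 5585 and 4139 in T cells. T cell CPM are thus only a rough guide to free RNA in classes of other depth. The libraries shared 111 cell barcodes. Without them the number of these genes past the fold used below did not change by more than 1.5 times in any comparison.

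Levels are UMIs of a class summed and divided by the class total. Reads start at the 3′ end, so levels are compared within a gene; between genes they are only approximate. A gene is called higher or lower at a 1.5-fold difference, if it reaches 10 CPM in any of the sums compared. Between Csf1r and mCherry-rich cells, 6 of the 8 genes measured were higher in Csf1r cells in both libraries, where 33% of all features were, and 1 was lower, where 32.2% were. Slc40a1 was not measured at that level. Of all 9 genes between neutrophils and Csf1r cells, 4 were higher in neutrophils in both libraries (15.3% of all features), Fth1, Slc40a1, Tfrc and Ncoa4, and 2 lower (41.8%), Blvrb and Blvra. Tfrc rests on 2 and 7 neutrophil UMIs and Ncoa4 on 9 and 11, and 1 interval of each spans 1 (2.39 [0.287 to 8.74] for Tfrc in the young library, 1.84 [0.917 to 3.32] for Ncoa4 in the adult). With a minimum of 50 CPM 2 were higher and 2 lower, and with S100a8 and S100a9 at 5% of UMIs or more 3 were higher and 3 lower.

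**Figure D1:**
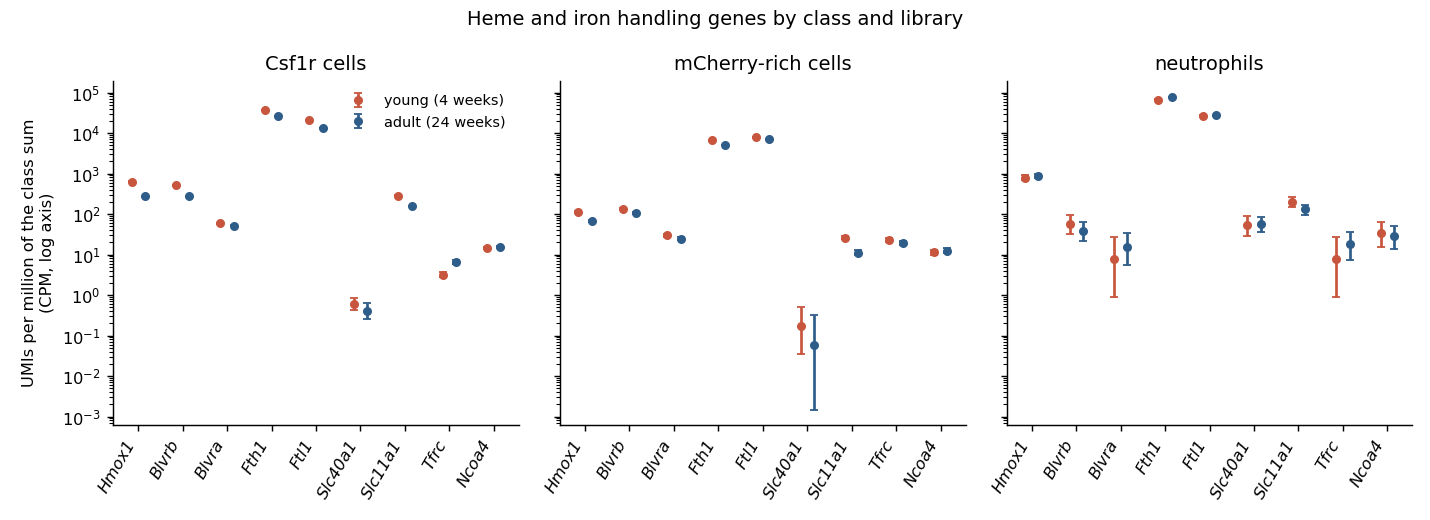
Level of each gene (CPM of the class sum, log axis) in Csf1r cells, mCherry-rich cells and neutrophils of the young and adult libraries; bars are 95% Poisson intervals. Slc40a1 lies under 1 CPM in Csf1r and mCherry-rich cells and at 52.9 and 56.1 CPM in neutrophils.

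Hmox1, the enzyme that opens heme, was highest by CPM in the neutrophils and in the cells of no class. In neutrophils it stood at 797 CPM [693 to 912] in the young library and 859.8 [770.4 to 957] in the adult. In Csf1r cells it stood at 631 and 271 CPM, and in mCherry-rich cells at 113 and 65.6. T cells, the reference for free RNA, read 34.5 and 42.4 CPM. By CPM, neutrophils therefore exceeded Csf1r cells by 3.17-fold [2.84 to 3.53] in the adult library. In the young library, where the Csf1r cells were themselves high, the excess was 1.26-fold [1.10 to 1.45]. Per cell the shallower neutrophils held fewer Hmox1 UMIs than Csf1r cells in both libraries. Without thinning, 49.1% and 41.3% of neutrophils held one, against 77.9% and 58.8% of Csf1r cells. Only 3 neutrophils in each library had 5000 UMIs or more, so the order at like depth was not tested. Csf1r cells exceeded mCherry-rich cells by 5.61-fold and 4.13-fold in CPM.

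The reductases behaved otherwise. Blvrb, which reduces flavins and biliverdin, was at 511 and 274 CPM in Csf1r cells, 135 and 106 in mCherry-rich cells and 56.7 and 38.3 in neutrophils. The neutrophil values rest on 15 UMIs in each library, and the adult one lies under the T cell value of 53.4 CPM. Blvra, the reductase for the main biliverdin isomer, was at 58.7 and 51.6 CPM in Csf1r cells against 30.1 and 24.8 in mCherry-rich cells. In neutrophils Blvra had 2 and 6 UMIs in all. Against Csf1r cells both reductases were past the fold downward in both libraries, as were many features there (41.8%), while Hmox1 was past it upward in the adult library only.

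Ferritin mRNA took a large share of all UMIs. Fth1, the heavy chain with the ferroxidase centre, was the most abundant of all features in Csf1r cells and in neutrophils of both libraries. In Csf1r cells Fth1 and Ftl1 together made up 5.76% (young) and 4.00% (adult) of UMIs, in neutrophils 9.33% and 10.6%, in mCherry-rich cells 1.43% and 1.19%, and in T cells 0.499% and 0.864%. By CPM, Fth1 was 1.82-fold and 2.90-fold higher in neutrophils than in Csf1r cells. For Ftl1, the light chain that aids mineral formation, that ratio was 1.27 and 2.10. Per cell the shallower neutrophils held fewer UMIs of both: 152 and 162 of Fth1 against 405 and 298 in Csf1r cells. For Ftl1 they held 60.6 and 57.1 against 230 and 145.

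The balance of the chains differed by class in the same order in both libraries. There were 2.51 [2.44 to 2.58] and 2.83 [2.77 to 2.90] Fth1 UMIs per Ftl1 UMI in neutrophils, and 1.76 and 2.05 in Csf1r cells. In mCherry-rich cells the order was turned, with 0.844 [0.838 to 0.851] and 0.716 [0.709 to 0.722]. Among mCherry-rich cells without a Csf1r UMI, Fth1 was at 3945 and 3855 CPM, beside T cell values of 3258 and 5726. Ftl1 was at 6704 and 6574, beside the T cells' 1729 and 2916. Per cell, all mCherry-rich cells held 267 and 178 Fth1 UMIs against 23.6 and 30.2 in the shallower T cells. The T cell CPM therefore does not give the level of free RNA in mCherry-rich cells.

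Slc40a1, the only known iron exporter, was rarely detected in Csf1r cells and far more often in neutrophils. It had 37 UMIs in 29 of 5526 young and 20 UMIs in 12 of 4364 adult Csf1r cells, or 0.607 [0.428 to 0.837] and 0.414 [0.253 to 0.639] CPM. In neutrophils 12 of 116 and 18 of 189 cells held a UMI (10.3% and 9.52%), at 52.9 [28.9 to 88.8] and 56.1 [35.2 to 85.0] CPM. That is 87.1-fold [43.5 to 165] and 136-fold [70.6 to 262] the Csf1r cell level. Neutrophils made up 1.64% and 3.27% of the cells kept and held 20.3% and 44% of all Slc40a1 UMIs. In T cells Slc40a1 had 0 UMIs. A limit of 3 counts there equals 10.4 and 5.53 CPM, and the upper ends of the Poisson intervals are 12.7 and 6.80 CPM. Spread over the whole class, the neutrophil UMIs are few, 14 and 22.

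**Figure D2:**
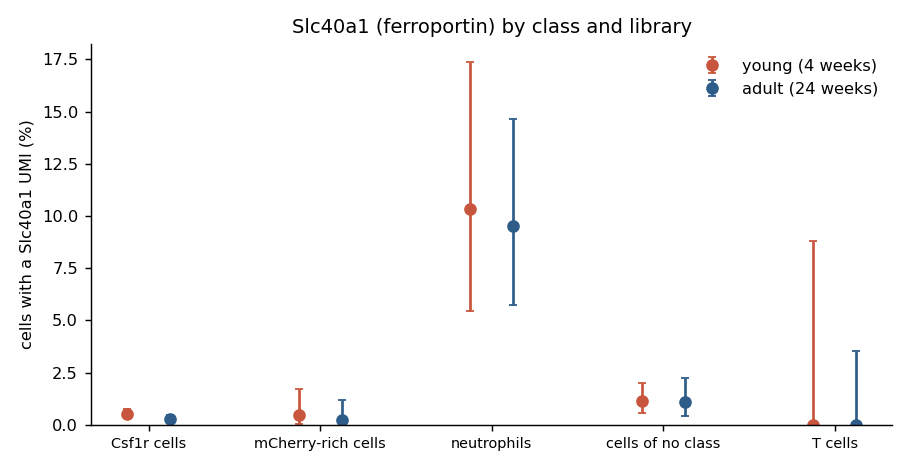
Share of cells with at least 1 Slc40a1 UMI (%) by class and library, not thinned; bars are 95% binomial (Clopper-Pearson) intervals. Neutrophils lie at 10.3% and 9.52%, the other classes at 1.12% or less.

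Summed over cells, neutrophils with a Slc40a1 UMI also held more of Hmox1 and Ftl1, by CPM, than the other neutrophils. The Hmox1 sums rest on 68 and 44 UMIs, and the spread between cells was not examined, so a few cells could carry the difference. Hmox1 was at 1726 [1340 to 2188] against 635 [535 to 748] CPM in the young library and at 1266 [920.1 to 1700] against 820.3 [729 to 919.8] in the adult. Ftl1 was at 36882 against 24775 CPM and at 50134 against 25352. These cells number 12 and 18, and their C1qa and Csf1r levels were no higher than in the other neutrophils: C1qa read 76.1 against 93.2 CPM (young) and 86.3 against 126 (adult). The 10 macrophage markers summed to 989.9 against 639 CPM in the young library (3 and 1 of them at 0) and to 374 against 952 in the adult (5 and 0 at 0), so they moved in opposite directions. The 6 monocyte markers did so too, at 3706 against 2126 CPM in the young library (2 and 0 at 0) and 892 against 1450 in the adult (3 and 0 at 0). The 7 neutrophil markers were lower in the cells with Slc40a1 in both, at 50513 against 66045 CPM and 81647 against 87919. The part of these markers in the Hmox1 and Ftl1 differences was not tested. Fth1 did not move in 1 direction, at 64702 against 67106 CPM in the young library and 95720.5 against 76360 in the adult.

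The other transporters differed in where they were found. Slc11a1, the phagosomal metal transporter, was at 287 and 157 CPM in Csf1r cells, 196 and 130 in neutrophils and 26.3 and 11.1 in mCherry-rich cells. Without a Csf1r UMI, mCherry-rich cells read 7.28 and 3.42 CPM. The T cells' 13.8 and 20.3 CPM rest on 4 and 11 UMIs in shallower cells. Tfrc, the transferrin receptor, had the opposite order: 22.8 and 19.7 CPM in mCherry-rich cells against 3.17 and 6.58 in Csf1r cells, 0.139 [0.116 to 0.165] and 0.334 [0.286 to 0.391] of the mCherry-rich level. It was the only one of the 9 genes that was lower in Csf1r cells than in mCherry-rich cells. T cells read higher than both for Tfrc, at 65.6 and 33.2 CPM, from 19 and 18 UMIs. Ncoa4, the ferritin receptor for lysosomal breakdown, was between 11.3 and 15.2 CPM in Csf1r and mCherry-rich cells of both libraries. Neutrophils read 34.0 and 28.1 CPM for Ncoa4, from 9 and 11 UMIs.

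The main contrast of the design is age. In Csf1r cells Hmox1, Blvrb, Slc11a1 and Ftl1 were past 1.5-fold higher in the young library, 4 of the 7 genes measured, where 3.41% of 6487 features were. None of the 7 was lower, where 2.48% of features were. The median log2 ratio (young over adult) was 0.67 over these 7 genes and 0.05 over all features. Markers of other cells were alike in the young and adult Csf1r cells, with 129 and 143 CPM for the 7 neutrophil, 16.5 and 16 for the 6 T cell, 15.4 and 13.7 for the 6 dendritic cell and 38.1 and 35.9 for the 5 fibroblast and endothelial markers. The Csf1r cells themselves differed in make-up: 3636 of 5526 young and 2130 of 4364 adult cells had 5 or more UMIs of the monocyte gene Ly6c2. At least 1 UMI of the macrophage gene Mrc1 was held by 386 and 865 of them. The direction and rough size of the 4 called genes were known when the genes were chosen, so the count describes the group and does not test it.

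**Figure D3:**
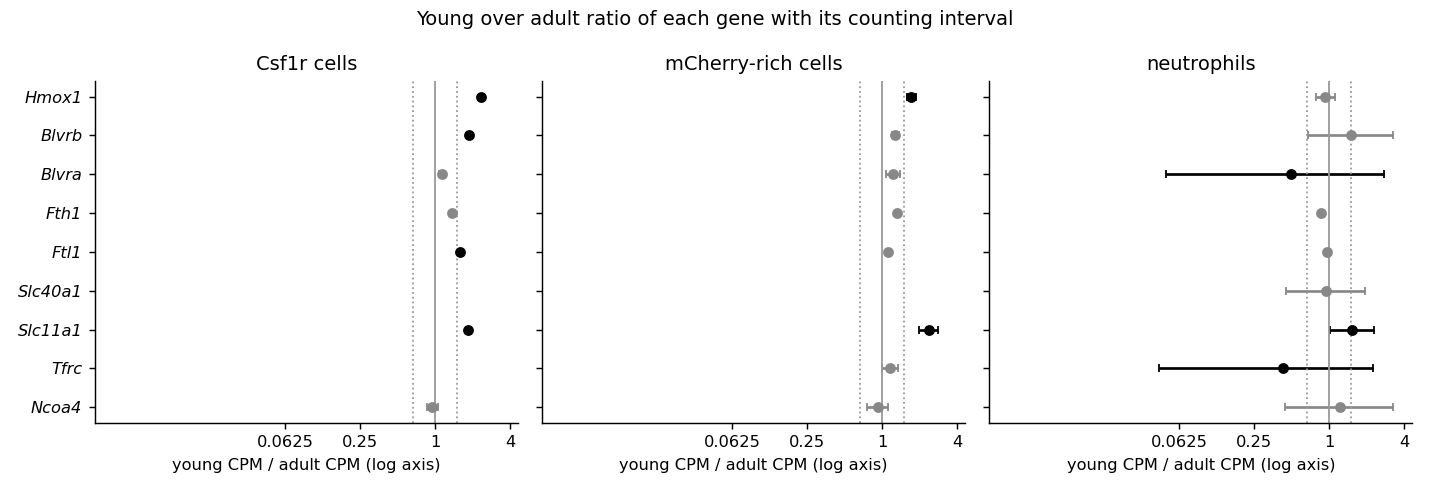
Young over adult ratio of CPM (log axis) for the genes that reach 10 CPM in each class; bars are 95% counting intervals, dotted lines mark 1.5-fold either way, black points lie past it. In Csf1r cells Hmox1 has the highest ratio at 2.33; in neutrophils the wide bars of Blvra and Tfrc span 1.

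Hmox1 had the largest ratio of the group, 2.33 [2.28 to 2.38], and ranked 20 among all 6487 features by that ratio. Blvrb followed at 1.87 [1.83 to 1.90], Slc11a1 at 1.82 [1.77 to 1.87] and Ftl1 at 1.59 [1.58 to 1.59]. Fth1, at 36736 and 26912 CPM, had a ratio of 1.37 [1.36 to 1.37] and did not reach the fold. The storage chains thus had lower ratios than Hmox1 and Blvrb, and Ftl1 a higher one than Fth1. Blvra (1.14) and Ncoa4 (0.946 [0.857 to 1.04]) were within the fold. Tfrc ran the other way, at 3.17 and 6.58 CPM (0.481 [0.400 to 0.577]), but lay under 10 CPM in both libraries and was not counted. Slc40a1 had too few UMIs in Csf1r cells for a ratio to be read (1.47 [0.830 to 2.67]).

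The difference was also seen as a share of cells. After each Csf1r cell was thinned to 5000 UMIs, which left out 517 young and 391 adult cells, 63.4% of young and 41.3% of adult cells held an Hmox1 UMI. T cells thinned alike held one in 18.2% and 15.4% of cells (22 and 39 cells). For Blvrb the shares were 84.5% and 62.5%, and for Slc11a1 68.6% and 48.6%. Without thinning they were 77.9% and 58.8% for Hmox1, 92.7% and 78.6% for Blvrb and 84.7% and 68.1% for Slc11a1. Hmox1 was the most unevenly spread of the well-measured genes: the 10% of cells with the most of it held 62.8% and 71.8% of its UMIs, against 28.8% and 39.1% for Blvrb and 22.7% and 25.4% for Ftl1.

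The age difference held inside each group of the Csf1r cells made by C1qa and Ly6c2. Csf1r cells were divided at 5 UMIs of C1qa, a complement gene of tumour macrophages, and at 5 UMIs of Ly6c2, a gene of inflammatory monocytes. Hmox1 was higher in the young library by 2.83-fold where both were low (1011 and 358 CPM), by 2.29-fold where only Ly6c2 was high (662 and 289.5 CPM), by 2.55-fold where only C1qa was high (596 and 234 CPM) and by 2.36-fold where both were high (485 and 206 CPM). Across the same 4 groups the ratio ranged from 1.70 to 2.17 for Blvrb, from 1.51 to 2.04 for Slc11a1, from 1.55 to 1.62 for Ftl1 and from 1.28 to 1.47 for Fth1. In the cells of no class the Hmox1 ratio was lower, at 1.68 [1.59 to 1.76], and uneven. It was 1.15 [1.08 to 1.24] without a C1qa UMI (763 and 661 CPM), 1.95 with 1 to 4 and 3.78 with 5 or more.

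Within each library the Csf1r cells were also compared by 3 markers. Between C1qa 5 or more and C1qa 0, none of the 7 genes measured was past the fold in both libraries, in either direction (1.18% of features higher, 1.22% lower). The same was true of Ly6c2 5 or more against 0 (0.776% higher, 1.55% lower) and of Mrc1 1 or more against 0 (1% higher, 0.486% lower). So few features were past the fold in these contrasts that a count of 0 among 7 says little. Hmox1 did differ by C1qa, short of the fold: cells with 5 or more C1qa UMIs had 0.686 [0.670 to 0.702] (young) and 0.714 [0.687 to 0.743] (adult) of the level in cells with none. Cells with 1 to 4 C1qa UMIs were at 768 and 332 CPM, close to those with none (758 and 312), and above those with 5 or more (519.9 and 223). Fth1 was lower with C1qa as well, by ratios of 0.793 and 0.839. Hmox1 was lower with Ly6c2 in the young library, at 568 CPM with 5 or more UMIs against 844 with none (0.673 [0.649 to 0.698]), and nearly level in the adult (254 against 271 CPM, 0.938 [0.895 to 0.983]). Slc11a1 was higher with Ly6c2 in the adult library (181 against 123 CPM, 1.48 [1.39 to 1.58]) and by 1.12 in the young. Csf1r itself ordered Hmox1 in the same way: 1024 and 611 CPM in the cells of no class, which had no Csf1r UMI, 742 and 342 with 1 to 4, and 503 and 189 with 5 or more. All these groups rest on marker UMIs that were not thinned, so they can also sort cells by depth. Median UMIs were 5037 and 4757 in the cells of no class against 10347.5 and 10119 in all Csf1r cells. The cells of no class are also mixed. Their dendritic cell markers summed to 150 and 291 CPM, against 15.4 and 13.7 in Csf1r cells. Their fibroblast and endothelial markers summed to 35.8 and 350 CPM, against 38.1 and 35.9. The part of depth or of other cell types in these orders was not tested.

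**Figure D4:**
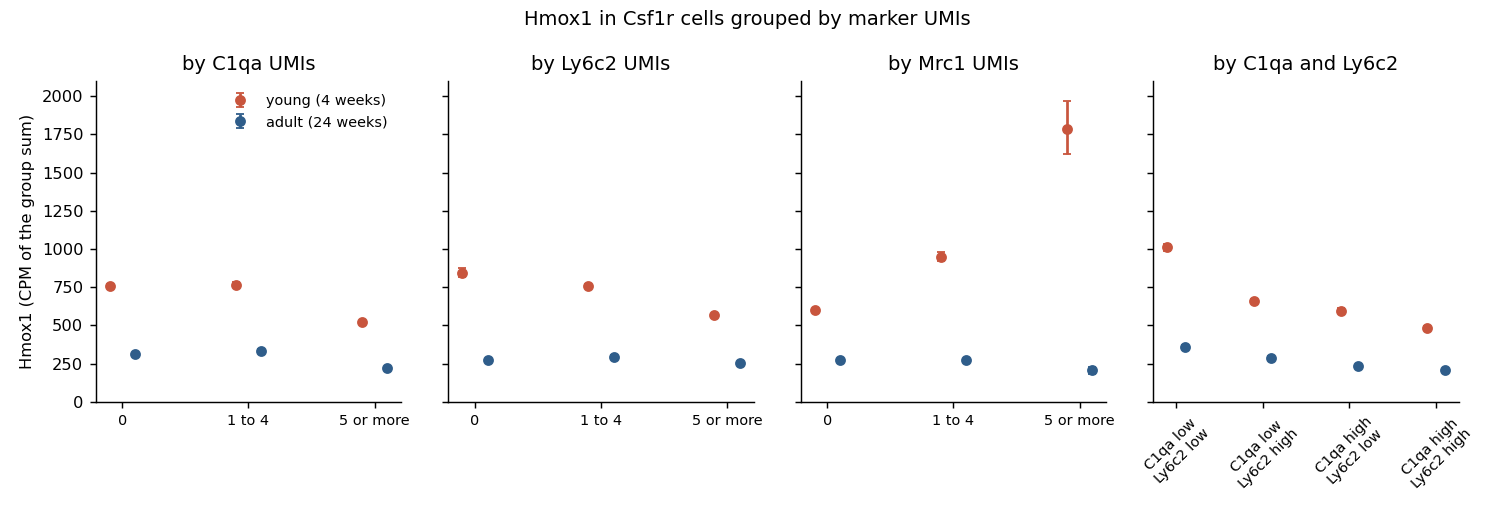
Hmox1 (CPM of the group sum) in Csf1r cells grouped by UMIs of C1qa, Ly6c2 or Mrc1 and by C1qa and Ly6c2 together (high means 5 or more UMIs); bars are 95% Poisson intervals. The young points lie above the adult points in every group, and only the young points rise with Mrc1; the young Mrc1 group of 5 or more holds 16 cells.

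Mrc1, the mannose receptor of alternatively activated macrophages, divided Hmox1 in the young library and not in the adult, a difference between libraries that was not tested. Young cells with at least 1 Mrc1 UMI were at 989 CPM against 598 in cells with none, 1.65-fold [1.60 to 1.70]. In the adult library the values were 263 and 274 CPM, a ratio of 0.960 [0.922 to 1]. The young cells with Mrc1 number 386 and the adult ones 865. With 5 or more Mrc1 UMIs, Hmox1 read 1789 CPM in 16 young cells and 206 CPM in 97 adult cells, too few in the young library for a comparison. Blvrb was nearly level between the same cells in both libraries (0.950 and 0.981). The 6 monocyte markers were lower in the cells with Mrc1 in both libraries alike, at 2914 against 5393 CPM in the young and 2398 against 5462 in the adult. The 10 macrophage markers were higher in both, at 12609 against 9141 and 11362 against 7626 CPM. The part of either list in the Hmox1 difference was not tested.

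Co-expression was read cell by cell in Csf1r cells thinned to 5000 UMIs, 5009 young and 3973 adult. The Pearson correlations are of log2(UMIs + 1) within a library, so the cells share a library and a depth, and they are given as a description. Of 5890 features seen in at least 5% of cells, Ftl1 was the most like Hmox1 (r = 0.468 young, 0.424 adult) and Fth1 the second (0.319 and 0.322). The median feature had a mean r of -0.01. Next came Plin2 (mean r 0.320), a lipid droplet coat protein, Ninj1 (0.317), which ruptures membranes of dying cells, Lgals3 (0.314), a galectin, and Clec4d (0.313), a lectin receptor. Ftl1-ps1 (0.305), the peroxiredoxin Prdx1 (0.297), cathepsin B (Ctsb, 0.293) and the fatty acid binder Fabp5 (0.284) completed the first 10. Of the other genes here, Blvrb ranked 54 (0.161), Slc11a1 122 (0.113), Ncoa4 673 (0.036) and Blvra 1944 (0.005). Tfrc and Slc40a1 were seen in too few cells to be ranked. The 5 features most like Slc40a1 were S100a8 (mean r 0.099), Gclm, Ptgr1, Hmox1 and Ftl1 (0.075), values too weak in such sparse counts to read as a pattern.

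Cells with more Hmox1 held more ferritin mRNA. In young cells with 0, 1 to 4, 5 to 19 and 20 or more Hmox1 UMIs (1833, 2341, 665 and 170 cells), Ftl1 stood at 17109, 20783, 30377 and 44651 CPM. In the adult cells (2331, 1400, 192 and 50), it stood at 11235, 14927, 25731 and 41312 CPM. Fth1 went from 30998 to 65189 CPM and from 23194 to 61588 across the same groups. Both chains were thus higher at each step, in both libraries.

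Compared at like Hmox1, the young over adult ratio was lower in the cells with most Hmox1 than in those with none, for both ferritin chains, Blvrb and Slc11a1. In cells with no Hmox1 UMI the young over adult ratio was 1.34 for Fth1, 1.52 for Ftl1, 1.97 [1.87 to 2.07] for Blvrb and 1.75 [1.64 to 1.86] for Slc11a1. At 5 to 19 Hmox1 UMIs it was 1.04 [1.03 to 1.05] for Fth1 and 1.18 [1.16 to 1.20] for Ftl1, but 1.62 [1.46 to 1.81] for Blvrb and 1.57 [1.35 to 1.83] for Slc11a1. At 20 or more the ratios were 1.06, 1.08, 1.24 [1.02 to 1.5] and 1.28 [0.979 to 1.70], with only 50 adult cells. Ferritin was thus nearly level between the libraries from 5 Hmox1 UMIs on for Fth1 and at 20 or more for Ftl1, where the ratios of Blvrb and Slc11a1 were also under 1.5 and that of Slc11a1 spanned 1. From the first to the last of these groups the 10 macrophage markers summed to 9514 and 7502 CPM in the young library and to 7994 and 8676 in the adult. The 6 monocyte markers were lower in the last group than in the first in both, at 5387 and 3740 CPM in the young and 5349 and 4056 in the adult. The 7 neutrophil markers went from a sum of 115 to 227 CPM in the young library (1 of 7 at 0 in the top group) and from 113 to 428 in the adult (3 of 7 at 0), far under the neutrophils' own sums given above. Their part in the result was not tested.

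**Figure D5:**
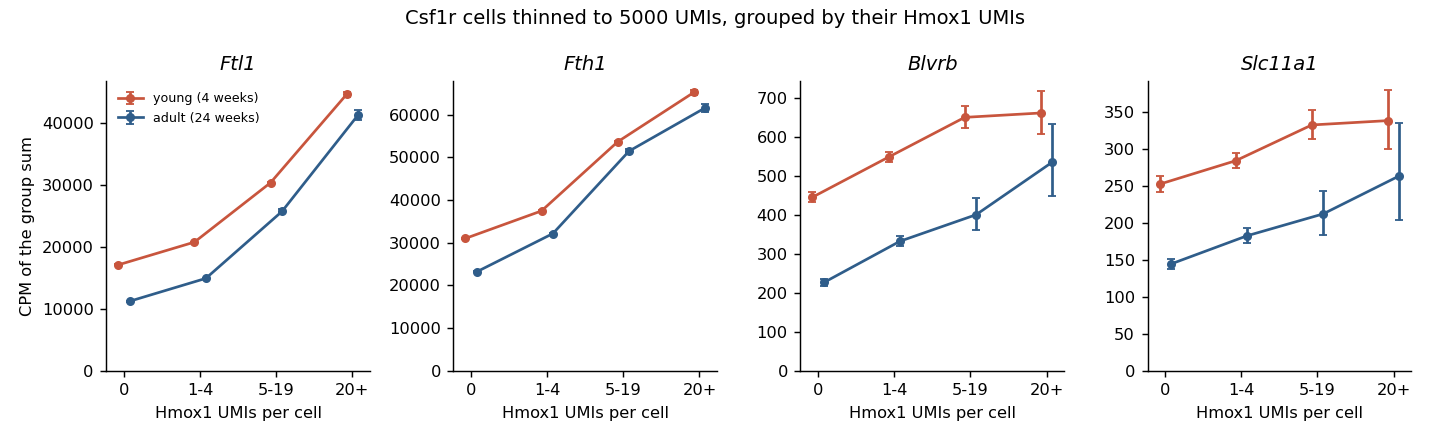
Ftl1, Fth1, Blvrb and Slc11a1 (CPM of the group sum) in Csf1r cells thinned to 5000 UMIs and grouped by Hmox1 UMIs per cell; bars are 95% Poisson intervals. The libraries lie closer together at 20 or more Hmox1 UMIs, where Fth1 reads 65189 and 61588 CPM and Blvrb 662 and 536 CPM, than at 0, where Blvrb reads 446 and 227 CPM.

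In mCherry-rich cells fewer of the genes differed by age. Hmox1 (113 and 65.6 CPM, 1.72-fold [1.59 to 1.85]) and Slc11a1 (26.3 and 11.1 CPM, 2.36-fold [1.99 to 2.81]) were higher in the young library, 2 of 8 measured, against 4.29% of 6648 features, and none was lower (0.948% of features). The median log2 ratio was 0.31 for the 8 and 0.03 for all features. Leucocyte RNA moved in the same direction: the macrophage markers summed to 709 CPM in the young and 478 in the adult mCherry-rich cells. In those without a Csf1r UMI (226 and 302 cells), Hmox1 was still 1.64-fold higher (110.2 and 67.2 CPM), Slc11a1 was 2.13-fold higher [1.33 to 3.44] at the low levels given above (7.28 and 3.42 CPM), and Fth1 and Ftl1 had ratios of 1.02 each. In those with a Csf1r UMI the Fth1 ratio was 1.33. Tfrc was at 22.8 and 19.7 CPM (1.16 [0.998 to 1.34]).

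Neutrophils did not share the age difference in Hmox1 or ferritin. Hmox1 was at 797 and 859.8 CPM (0.927 [0.777 to 1.10]), Ftl1 at 26577 and 27549 CPM (0.965 [0.936 to 0.994]) and Fth1 at 66748 and 78076 CPM (0.855 [0.839 to 0.871]). The interval for Hmox1 lies wholly under the 2.33 of the Csf1r cells, though the difference between the classes was not tested. Slc40a1 had a ratio of 0.942 [0.446 to 1.93]. Of the 9 genes Slc11a1 was past the fold upward (1.51 [1.01 to 2.27]), where 26% of 5757 features were, and Blvra and Tfrc downward, where 18.5% were. Blvra and Tfrc had 2 UMIs each in the young neutrophils, and their intervals span 1. With shares this large among all features, counts past the fold carry little in this class.

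The wider pathway was examined in Csf1r cells by lists of related genes. Of heme synthesis enzymes 5 of 8 were measured and 0 were past the fold, with a median log2 ratio of -0.02. Alas1, the enzyme that sets the rate of heme synthesis, was at 67.8 and 76.2 CPM, and the later enzymes Urod (20.99 and 18.3) and Fech (10.5 and 11.7) were lower in level and alike between libraries. Of 10 measured genes for heme transport, uptake and sensing, 1 was higher and 0 lower (median 0.14): Slc48a1, which carries heme out of the phagolysosome, at 119 and 61.4 CPM, 1.94-fold [1.86 to 2.02]. Lrp1 (232 and 207 CPM) and Nfe2l2 (184 and 169.9 CPM), a receptor for heme bound to hemopexin and the NRF2 transcription factor, were within the fold, as was Hmox2 (105 and 88.2 CPM), the constitutive heme oxygenase, and Maff (85.2 and 121 CPM), a small Maf partner of NRF2.

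Of 12 measured genes for iron import, export, storage control and sensing, 2 were higher and 1 lower (median 0.09). The iron chaperones Pcbp2 (314 and 318 CPM) and Pcbp1 (141 and 150 CPM) and the iron-sulfur scaffold Iscu (135 and 127 CPM) were within the fold. Fbxl5, which degrades iron regulatory proteins when iron is plentiful, was at 193 and 103 CPM (1.87-fold [1.81 to 1.94]), and the mitochondrial iron importer Slc25a37 at 54.0 and 36.0 CPM (1.5-fold [1.42 to 1.59]). Hfe, a partner of the transferrin receptor, was lower at 10.7 and 21 CPM. Of 6 measured NRF2 targets outside heme and iron, 2 were higher and 0 lower (median 0.56): Prdx1 at 2545 and 1414 CPM and Srxn1, which repairs peroxiredoxins, at 57.8 and 30.7 CPM. The cystine importer Slc7a11 (411 and 333 CPM), the thioredoxin reductase Txnrd1 (92.2 and 80.5 CPM) and Gclm (55.8 and 37.6 CPM), a subunit of the enzyme that starts glutathione synthesis, were within the fold, as was G6pdx. These 4 had ratios of 1.14 to 1.48. The same share of all features, 3.41% higher and 2.48% lower, stands beside each of these counts.

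No red blood cell transcript was measured in Csf1r cells. Each of the 6 listed had at most 2 UMIs in the class in either library, so the heme and iron genes were read in cells with next to no globin mRNA. The hemoglobin scavenger Cd163 was at 0 UMIs in the young library and 0.083 CPM in the adult, and Spic, a factor of red pulp macrophages, at 0.870 and 0.310 CPM.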

How the data were processed

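The libraries were made with the 10x Genomics 3′ kit (V2) from sorted mCherry-positive cells, per the labels' protocols. The deposited matrices hold UMI counts per gene and cell barcode, made by the authors with Cell Ranger 3.0.2 on build mm10, per the submitters' processing notes. They hold 7558 young and 6279 adult barcodes with 84862471 and 70988070 UMIs. Barcodes with 200 genes or more and 10% mitochondrial UMIs or less were kept (7090 and 5774). Doublets were not called; instead results were repeated without the 6% of cells with the most UMIs.

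UMIs were summed per library and class (thresholds in the report) and divided by the class total (CPM). Levels have exact Poisson intervals, ratios conditional binomial and shares Clopper-Pearson intervals, all 95% and for counting error only. A count of 0 was given a limit of 3 counts. With 1 library per age no test was run. For thinned values each cell was reduced to 5000 UMIs without replacement (seed 0) and shallower cells were left out. The ratio, interval and thinning code was tested on simulated counts. Python 3.11.15, numpy 2.4.6, scipy 1.17.1 and pandas 2.3.3 were used.

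All 9 genes are named, with the 10 features most correlated with Hmox1, the 5 most correlated with Slc40a1, and up to 4 genes of highest level in each of 6 related lists, of which 1 gene is not reported here. Beyond that rule Slc48a1, Slc25a37, Hfe, Srxn1, G6pdx, Cd163 and Spic were named after their values were seen. The genes, lists and thresholds were chosen with earlier results of these data known. Promoter windows for Hmox1 and Slc40a1 were not used here.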

Additional observations from a re-analysis of the deposited data

Results flagged for a closer look

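The difference between Csf1r cells with and without an Mrc1 UMI pointed in opposite directions in the 2 libraries for 3 genes. Their counting intervals lay on either side of no difference. These differences between libraries were not tested, because each age is 1 library. For Hmox1 the log2 ratio of cells with an Mrc1 UMI over cells without was 0.72 in the young and -0.06 in the adult library, a difference of 0.78. Fth1 had log2 ratios of 0.08 and -0.18, a difference of 0.25. Ftl1 had 0.08 and -0.08, a difference of 0.15. The adult value for Hmox1 lies at the edge of its counting interval, and the ferritin differences are small beside the 1.5-fold used for calls.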

How the results depend on the processing

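The numbers of genes past the fold and the co-expression of Ftl1 with Hmox1 were recomputed. The value stayed within 1.5 times of the reported one in 69 recomputations, and a number of genes moved in 8. These numbers join both directions, so a shift between higher and lower does not show. By age in neutrophils, 1 gene was higher and 2 lower as reported. At 2-fold, and with a pseudocount of 5 CPM, 0 were higher and 2 lower. With each cell weighted alike, 2 were higher and 1 lower. At 2-fold, 1 gene remained past it by age in Csf1r cells (4 at 1.5-fold) and 1 in mCherry-rich cells (2 at 1.5-fold). With a minimum of 50 CPM, 1 gene was past the fold in mCherry-rich cells, where Slc11a1 is no longer measured, and 1 in neutrophils (3 as reported). Leaving out mCherry-rich cells with a Csf1r UMI gave 1 gene. In neutrophils 6 genes were past the fold after thinning to 5000 UMIs, which left 3 cells in each library, and 1 with S100a8 and S100a9 at 5% of UMIs or more. With each cell weighted alike, 1 gene was lower in Ly6c2 5 or more against 0 in both libraries, where the summed counts gave 0; the cause was not tested.

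The log2 age ratio in Csf1r cells ranged over 11 recomputations from 1.16 to 1.32 for Hmox1, 0.84 to 0.94 for Blvrb, 0.79 to 0.89 for Slc11a1, 0.63 to 0.68 for Ftl1, 0.41 to 0.49 for Fth1 and -1.35 to -0.94 for Tfrc. None of the called ratios changed sign. Leaving out shared barcodes and adding the cells of no class were chosen after seeing the data. Ftl1 was the feature most like Hmox1 among these genes at 3000 UMIs, by rank correlation and in cells with 5 or more C1qa UMIs. No paired analysis was possible because each group is 1 library. Depth limits Slc40a1 and Tfrc in Csf1r cells, and every sparse gene in neutrophils.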
